A study of Mus musculus with 15 samples.

Results

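The 10 genes followed here are ones that goblet cells of the intestine use to make and secrete mucus, measured in 15 mouse RNA libraries: Muc2, Fcgbp, Clca1, Zg16, Tff3, Agr2, Spink4, Retnlb, Capn9 and Spdef. They were taken by symbol from the 45905 genes of the deposited tables, and all 10 were found in both. Goblet cells are secretory cells of the gut epithelium that pack the gel-forming mucin encoded by Muc2 into granules and release it as the mucus that covers the surface. Around the mucin they secrete proteins that bind it, cut it or meet bacteria at its edge, and they rely on a large endoplasmic reticulum to fold it. The transcription factors encoded by Atoh1 and then Spdef are known to direct cells into this lineage and to mature them.

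The study concerned Jup, which encodes the junction protein plakoglobin, and used a Cre recombinase driven by the villin promoter, active in intestinal epithelium and switched on by tamoxifen. Organoids, epithelial structures kept in culture, gave 9 libraries. The Tamoxifen organoids (n = 3, code T41) carried floxed Jup and the inducible Cre per their titles, and the DMSO and nativ organoids (n = 3 each, code T75) carried floxed Jup with no Cre in their titles. Treatment, Cre and code therefore changed together between T41 and T75, and each group came from a single code. Gut tissue gave 6 libraries, 3 described as PG_KO and 3 as ctr, each with its own code. Their titles conflict with the descriptions: the ctr libraries are titled with the Cre and floxed Jup, and the PG_KO libraries as DSS colitis with floxed Jup. DSS, dextran sodium sulfate, injures the colon, and which mice received it was not settled by the labels. Groups follow the descriptions. Jup itself read 75.2, 82.8 and 80.3 CPM in PG_KO gut, against 302, 375 and 495 CPM in ctr gut, the lower level being in the libraries described as PG_KO. In organoids it read 69.0 to 71.2 CPM with Tamoxifen, 360 to 414 CPM with DMSO and 275 to 395 CPM in nativ (CPM, the reads of a gene scaled by the library total). Age, sex and gut segment are not given in the labels used here.

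Totals were 25185053 to 30744563 reads per organoid library and 23194385 to 29257641 per gut library, so that 3 reads in a library, the limit that a count of 0 allows, corresponded to between 0.0976 and 0.129 CPM. Such limits and counting intervals cover counting error only. The labels do not say whether organoid replicates were separate cultures, and p-values measure the spread between these samples. Gut libraries held RNA of the whole wall: summed over 8 smooth muscle markers they had 665 to 1282 CPM in PG_KO and 740 to 4827 CPM in ctr, against at most 17.0 CPM in organoids. In gut the summed level of 5 Paneth cell markers was 5.73 to 9.91 CPM in PG_KO and 13.8 to 22.1 CPM in ctr, while 5 colonocyte markers summed to 450 to 870 CPM in PG_KO and 1519 to 3082 CPM in ctr. Library ctr replicate 3 stood apart from ctr replicates 1 and 2, with 740 CPM of smooth muscle markers against 4827 and 3767 CPM, and results that rest on it are given with and without it.

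The promoters of the genes whose gut profiles are compared below are shown as the 250 bases before the RefSeq start on GRCm38.p6, which were found for 5 of the 10 genes (Muc2, Fcgbp, Capn9, Agr2 and Spdef). Capn9 and Fcgbp were the members most like Muc2 across gut libraries, and Agr2 the one least like it, which is why these 4 are printed. Capitals mark matches on either strand to 7 short motifs. These were the box TATAAA, which helps to place the start of transcription, the motif CACCC of Krüppel-like factors, the core CGGAT of SPDEF, the forkhead motif TGTTTAC with its variant TGTTTGC, the GATA factor motif AGATAA and the E-box CAGCTG of helix-loop-helix factors such as Atoh1. The first, of Muc2, lies at chr7:141690090-141690339, plus strand. That of Fcgbp lies at chr7:28070986-28071235, plus strand. That of Capn9 lies at chr8:124575861-124576110, plus strand, and that of Agr2 at chr12:35992675-35992924, plus strand, where the last 18 bases overlap an annotated Agr2 exon.
Muc2: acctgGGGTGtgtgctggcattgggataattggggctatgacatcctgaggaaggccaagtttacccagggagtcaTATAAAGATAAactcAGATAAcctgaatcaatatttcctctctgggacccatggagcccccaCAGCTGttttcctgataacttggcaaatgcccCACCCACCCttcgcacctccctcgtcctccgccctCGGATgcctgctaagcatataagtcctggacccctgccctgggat
Fcgbp: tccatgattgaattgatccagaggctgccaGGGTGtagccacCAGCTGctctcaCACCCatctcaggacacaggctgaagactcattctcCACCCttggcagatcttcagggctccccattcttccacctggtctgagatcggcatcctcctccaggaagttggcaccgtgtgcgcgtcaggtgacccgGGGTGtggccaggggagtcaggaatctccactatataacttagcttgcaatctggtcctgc
Capn9: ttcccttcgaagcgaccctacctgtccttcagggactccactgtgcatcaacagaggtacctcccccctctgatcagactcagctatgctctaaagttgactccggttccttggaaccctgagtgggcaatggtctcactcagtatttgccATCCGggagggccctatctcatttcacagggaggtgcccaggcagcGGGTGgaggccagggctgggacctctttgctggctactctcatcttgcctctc
Agr2: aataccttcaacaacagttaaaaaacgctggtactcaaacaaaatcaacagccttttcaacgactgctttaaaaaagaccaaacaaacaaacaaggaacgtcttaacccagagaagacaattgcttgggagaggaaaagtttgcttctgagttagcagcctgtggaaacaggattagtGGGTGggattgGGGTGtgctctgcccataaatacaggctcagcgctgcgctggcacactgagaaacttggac
The Muc2 window held TATAAA at -174 to -169 from the start, 3 CACCC, 1 CGGAT, 2 AGATAA and 1 CAGCTG, with the first AGATAA sharing its first base with the TATA match and 2 of the CACCC sharing 1 base. The Fcgbp window held 4 CACCC and 1 CAGCTG. Capn9 had 1 CACCC and 1 CGGAT, Agr2 had 2 CACCC, and the Spdef window held none of the 7. In the annotation used for the counts, Capn9 starts at base 124576062, inside its printed window. The Spdef window, chr17:27728952-27729201 on the minus strand, lies inside the gene as counted, which spans bases 27714446 to 27731003. Both windows thus do not end at the start of the gene as counted. Of 32841 promoters of the same length, 52.02% held CACCC, 13.4% CGGAT, 13.0% CAGCTG, 12.4% TATAAA, 9.99% AGATAA, 4.30% TGTTTGC and 3.17% TGTTTAC. A match is only a run of letters, and no binding was measured.

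In gut, the mucus genes stood lower in the libraries described as PG_KO than in ctr. The difference was greatest for Clca1, at 23.1 times more in ctr by group means, and smallest for Agr2, at 1.49 times more. For 9 of the 10 genes every PG_KO library lay below every ctr library; across all 18043 genes tested the share that did so was 8.67%. The quasi-likelihood test of edgeR called none of the 10 at an adjusted p under 0.05, and 0% of all genes. At an unadjusted p under 0.05 it had 9 of the 10 lower, against 9.72% of all genes. DESeq2 called the same 9 lower, Muc2, Fcgbp, Clca1, Zg16, Tff3, Spink4, Retnlb, Capn9 and Spdef, against 1.99% of all genes. The median log2 change was -2.63 over the 10 genes and -0.03 over all genes. In bulk tissue, fewer goblet cells and less RNA per goblet cell cannot be told apart.

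**Figure D1:**
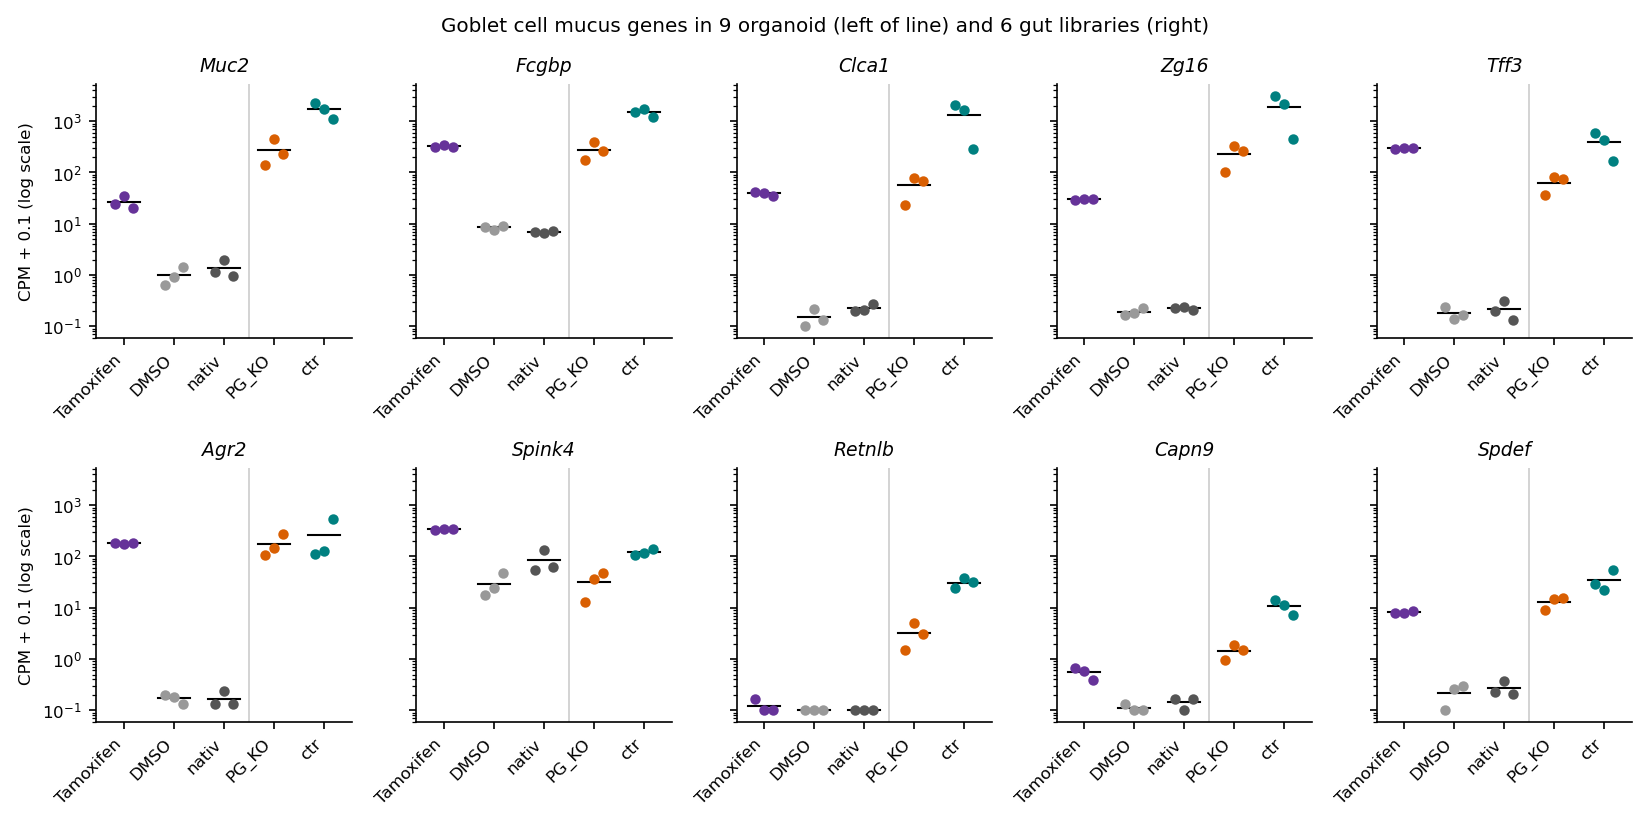
Level of each of the 10 genes in each library (points, CPM + 0.1 on a log axis) with the group mean (line); organoid groups Tamoxifen, DMSO and nativ stand left of the grey line and gut groups PG_KO and ctr right of it. In gut the groups overlap for Agr2 alone among the 10, and in DMSO and nativ organoids Spink4 is the one gene above 10 CPM.

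Of the secreted mucus proteins, Muc2, the gel-forming mucin itself, had 141, 444 and 228 CPM in PG_KO gut, against 2286, 1704 and 1095 CPM in ctr gut. The lowest ctr library was 2.47 times the highest PG_KO library. Its edgeR log2 change was -2.64 (SE 0.45, adjusted p = 0.330), and DESeq2 gave -2.60 (SE 0.45, adjusted p = 6.02e-06). Fcgbp, which encodes an abundant mucus protein that binds the mucin, had 173, 389 and 265 CPM in PG_KO gut, against 1532, 1717 and 1203 CPM in ctr gut. Its ctr values lay within 1.43 times of each other, and its edgeR change was -2.43 (SE 0.30, adjusted p = 0.226). Clca1, which encodes a secreted protease that acts on the mucus, had 22.7, 79.2 and 69.3 CPM in PG_KO gut, against 2026, 1639 and 281 CPM in ctr gut. Here ctr replicate 3 was 7.20 times lower than ctr replicate 1 and still 3.56 times the highest PG_KO library. The edgeR change of Clca1 was -4.52 (SE 0.82, adjusted p = 0.330). Zg16, a lectin-like protein that binds Gram-positive bacteria, had 100.5, 333 and 265 CPM in PG_KO gut, against 3094, 2151 and 451 CPM in ctr gut. Its groups came nearest to touching among these, with the lowest ctr library at 1.35 times the highest PG_KO library, and its edgeR change was -3.02 (SE 0.73, adjusted p = 0.330). Reads of Muc2, Fcgbp and Clca1 were in part divided among several genes or places in the deposited counts.

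The small secreted peptides were lower too. Tff3, a trefoil peptide known for helping the epithelium to close wounds, had 36.2, 80.3 and 73.0 CPM in PG_KO gut, against 587, 429.5 and 165 CPM in ctr gut. Retnlb, a resistin-like peptide of goblet cells that acts on bacteria, had 1.37, 4.91 and 2.97 CPM in PG_KO gut, against 24.2, 37.1 and 31.6 CPM in ctr gut. Retnlb was 10.03 times higher in ctr by group means, and here ctr replicate 3 sat between the other 2 ctr libraries. Its edgeR change was -3.34 (SE 0.46, adjusted p = 0.250), and that of Tff3 was -2.63 (SE 0.49, adjusted p = 0.330). Spink4, of the Kazal family of protease inhibitors, had 13.1, 36.8 and 46.9 CPM in PG_KO gut, against 108, 119 and 142 CPM in ctr gut. Its edgeR change was -1.94 (SE 0.42, adjusted p = 0.330).

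Of the genes that act inside the cell, Capn9, which encodes a protease of the calpain family, had 0.846, 1.82 and 1.44 CPM in PG_KO gut, against 14.0, 11.1 and 6.999 CPM in ctr gut. It was the least abundant member in gut, yet its groups were 3.84 times apart at their nearest libraries, and its edgeR change was -2.95 (SE 0.39, adjusted p = 0.250). Spdef, the transcription factor of goblet cell maturation, had 8.91, 14.8 and 15.5 CPM in PG_KO gut, against 28.4, 22.1 and 55.2 CPM in ctr gut. Its edgeR change was -1.44 (SE 0.40, adjusted p = 0.330), and its DESeq2 call was the nearest to the threshold (adjusted p = 0.0477). Agr2, a disulfide isomerase of the endoplasmic reticulum that is needed to make the mucin, had 105, 149 and 271 CPM in PG_KO gut, against 111, 127 and 546 CPM in ctr gut. These groups overlapped, with 2 of the 3 PG_KO libraries above 2 of the 3 ctr libraries, and neither edgeR (log2 change -0.60, SE 0.69, adjusted p = 0.643) nor DESeq2 (adjusted p = 0.635) called a difference.

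**Figure D2:**
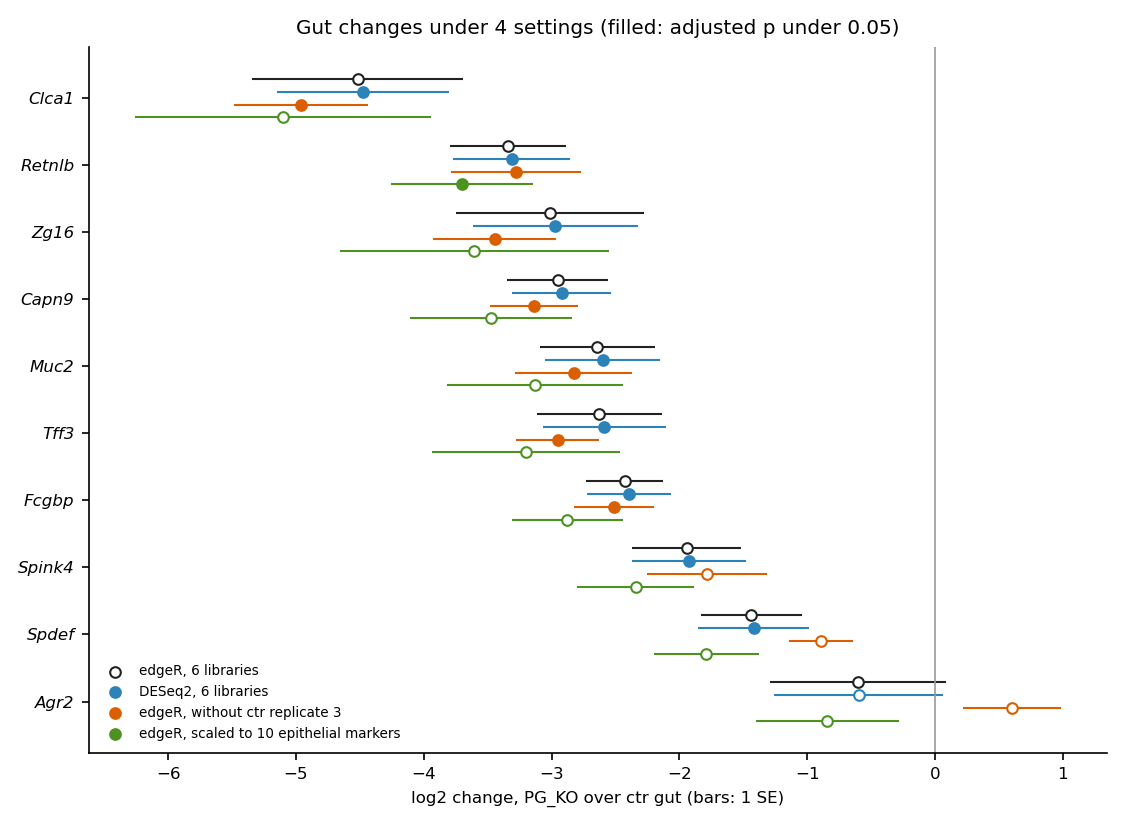
Log2 change of each gene in PG_KO over ctr gut under 4 settings (points, bars 1 SE; filled points have an adjusted p under 0.05). The points of 9 genes lie below 0 in all 4 settings, while Agr2 crosses to 0.60 without ctr replicate 3.

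Without ctr replicate 3, edgeR called 7 of the 10 genes lower: Muc2, Fcgbp, Clca1, Zg16, Tff3, Retnlb and Capn9. In that fit of 5 libraries it called 5.91% of 18679 genes lower. Their adjusted p-values ran from 0.0329 for Clca1, Fcgbp, Capn9 and Tff3 to 0.0390 for Muc2. Spink4 (log2 change -1.78, adjusted p = 0.0667) and Spdef (-0.89, adjusted p = 0.0718) were not called there, and Agr2 turned to 0.60 (SE 0.38, adjusted p = 0.304). Leaving out any other single gut library, edgeR called 0 of the 10 genes and 0 of all genes.

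Markers of other cells were summed in the same gut libraries, and neither edgeR nor DESeq2 called any of the epithelial, leukocyte, fibroblast or smooth muscle markers between the groups. EdgeR called 0% of all genes, so its lack of calls does not show that the groups were alike. DESeq2 called 1.99% of all genes lower. Every PG_KO library lay below every ctr library for 3 of the 10 leukocyte markers, against 8.67% of all genes. All lay above for 1 of the 10 epithelial markers, against 9.97% of all genes. The groups overlapped for each fibroblast and smooth muscle marker. The median log2 change was 0.24 for epithelial, -1.19 for leukocyte, -1.20 for fibroblast and -1.69 for smooth muscle markers. The summed level of 10 epithelial markers was 16178 to 20455 CPM in PG_KO and 10598 to 17722 CPM in ctr, that of 10 leukocyte markers 551 to 881 CPM in PG_KO and 1040 to 2239 CPM in ctr, and that of 8 fibroblast markers 653 to 1408 CPM in PG_KO and 944 to 3781 CPM in ctr. None of these markers, nor of the smooth muscle markers, was at 0 in a gut group. The mucus genes belong to the epithelium, and scaled to the summed CPM of the 10 epithelial markers 9 of the 10 had every PG_KO library below every ctr library. The share of all genes that did so on this quotient was not computed, so nothing is read from that count. In the edgeR fit scaled to these markers the median log2 change of all genes was -0.51, against -0.03 in the main fit. Values on this scale therefore include a shift shared by all genes. By the means of that quotient, ctr was 8.75 times PG_KO for Muc2, 34.3 times for Clca1 and 13.0 times for Retnlb. Without ctr replicate 3 the ratios were 11.1 for Muc2, 48.9 for Clca1 and 14.4 for Retnlb. The groups of Agr2 overlapped on that scale, at a ratio of 1.79, or 1.05 without ctr replicate 3. With libraries scaled to these markers, the log2 changes ran from -0.84 for Agr2 to -5.10 for Clca1, and Retnlb alone of the 10 was called by edgeR (adjusted p = 0.0370). That fit called 12 of all 18043 genes lower, and the scaling was chosen after seeing the data. The summed level of the 5 colonocyte markers given above was lower in PG_KO as well, with 2 of 5 called lower by DESeq2 (Car4 and Aqp8), against 1.99% of all genes. The part of colonocyte markers in the result was not tested.

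Across the 6 gut libraries the genes did not all follow one profile. Muc2, Fcgbp, Clca1, Zg16, Tff3, Spink4, Retnlb and Capn9 had Pearson r between 0.80 and 0.998 with each other on the log2 CPM scale (28 pairs, median 0.95). All of these but Spink4 were lowest in PG_KO replicate 1 and highest in PG_KO replicate 2 within their group. Spdef had r of 0.55 to 0.90 with those 8. Agr2 had r of -0.19 to 0.65 with the other 9, and a median of 0.06. These libraries share the group difference, so r here describes it together with the spread inside groups. In ctr replicate 3 Agr2 was 4.90 times its level in ctr replicate 1. In that same library Zg16 was 6.87 times and Tff3 3.56 times below ctr replicate 1, so its low mucus RNA did not extend to Agr2, Spdef, Spink4 or Retnlb.

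**Figure D3:**
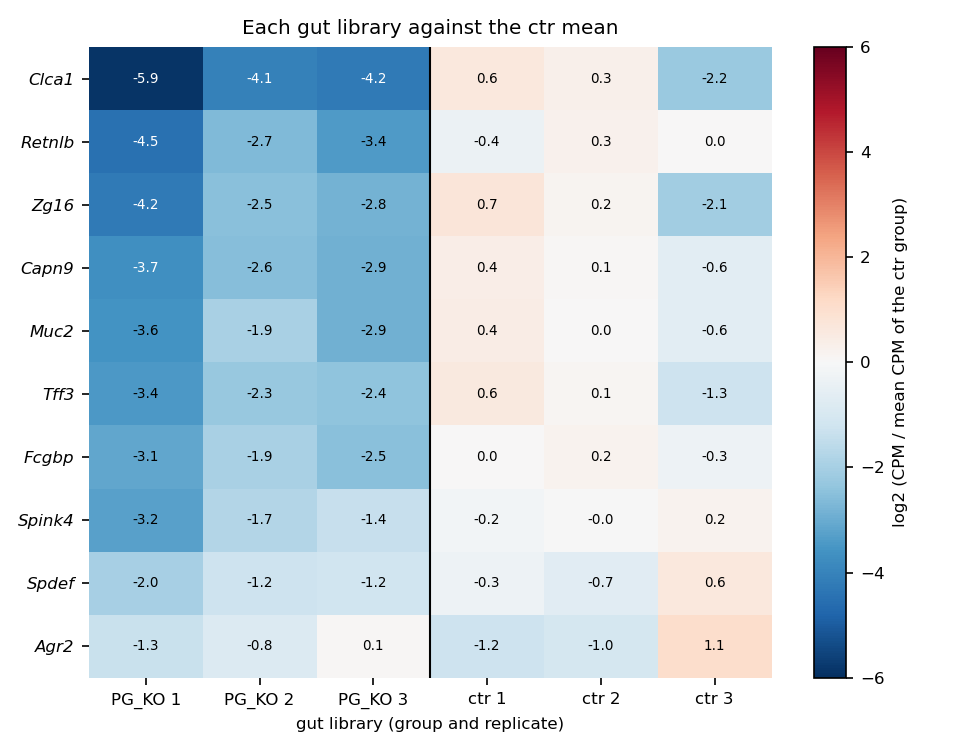
Heat map of log2 of the CPM of each gene in each gut library over the mean CPM of the ctr group, PG_KO libraries left and ctr libraries right. The library ctr 3 reads -2.2 for Clca1 and -2.1 for Zg16 but 1.1 for Agr2, and the library PG_KO 1 is the lowest of the 6 for each gene, Agr2 included.

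Among 11439 other genes with at least 10 CPM on average in a gut group, the 5 whose profile over the 6 gut libraries was most like that of Muc2 were Bmp2k (r = 0.99), C4bp, Sval1, Plcb2 and Fer1l6 (r = 0.98). Fer1l6, itself on the list of other goblet cell markers, had 1.69, 4.55 and 4.10 CPM in PG_KO gut, against 30.1, 18.5 and 11.5 CPM in ctr gut. Sval1 had 5.11, 15.6 and 12.8 CPM in PG_KO gut, against 130.1, 117 and 48.0 CPM in ctr gut. On the same ranking Capn9 took place 2, Fcgbp 4, Tff3 20 and Clca1 23, while Spdef took place 1147 and Agr2 5201.

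Companion genes of goblet cells were counted in the same gut fits. Of 13 other goblet cell markers, 10 had PG_KO libraries all below ctr libraries, against 8.67% of all genes, and edgeR called 0. DESeq2 called 6 lower (Klk1, Bcas1, Ang4, Tpsg1, Fer1l6 and Rep15), against 1.99% of all genes. Their edgeR log2 changes ran from -2.04 for Rep15 to -2.53 for Fer1l6, and the median of the 13 was -2.04. Ang4, an antimicrobial ribonuclease and the one of smallest p, stood at only 0.176, 0.158 and 0.205 CPM in PG_KO gut, against 0.931, 0.905 and 1.15 CPM in ctr gut. Of 11 transcription factors of the secretory lineage, none was called by either tool, and the median log2 change was -0.16. PG_KO libraries lay all below ctr libraries for 2 of them, against 8.67% of all genes. The 2 were Atoh1 and Gfi1, the first of which had 2.82, 6.65 and 11.5 CPM in PG_KO gut, against 13.9, 12.7 and 20.3 CPM in ctr gut (log2 change -1.17, SE 0.49, edgeR adjusted p = 0.333). Gfi1 was named after its values were seen.

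Genes of the machinery for making the mucin were counted next. Of 14 glycosylation enzymes none was called, 1 had PG_KO libraries all below ctr libraries, and the median log2 change was -0.09. The share of all genes that lay below in this way was 8.67%, so nothing is read from that count. The 1 enzyme was Gcnt3, which branches mucin sugar chains, at 31.5, 21.0 and 22.9 CPM in PG_KO gut, against 65.0, 36.0 and 44.8 CPM in ctr gut (log2 change -0.92, SE 0.27, edgeR adjusted p = 0.330). Of 18 genes for folding in the endoplasmic reticulum none was called, 3 had PG_KO libraries all above ctr libraries, against 9.97% of all genes in that direction, and the median log2 change was 0.38. Manf, a folding-stress protein, had 255, 231 and 225 CPM in PG_KO gut, against 132, 153 and 191 CPM in ctr gut (log2 change 0.59, SE 0.20, edgeR adjusted p = 0.330). Of 10 genes for mucus release and assembly 9 were tested, and DESeq2 called only Mptx1, a pentraxin, at 0.951, 0.752 and 0.342 CPM in PG_KO gut, against 16.6, 22.9 and 0.841 CPM in ctr gut. Its groups overlapped, since ctr replicate 3 lay among the PG_KO libraries. DESeq2 called 1.99% of all genes lower. Of 6 other mucins tested none was called. Muc3, a membrane-bound mucin, had 2126, 1584 and 2179 CPM in PG_KO gut, against 2403, 3566 and 3645 CPM in ctr gut (log2 change -0.70, SE 0.26, edgeR adjusted p = 0.330).

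Of 9 paralogues of the members tested, DESeq2 called 4 lower, against 1.99% of all genes: Spink1, Capn8, Clca4a and Clca4b. Spink1, a trypsin inhibitor of the same family as Spink4, had 8.70, 23.4 and 35.8 CPM in PG_KO gut, against 424, 459 and 70.0 CPM in ctr gut (edgeR log2 change -3.80, SE 0.81, adjusted p = 0.330). Reads of near-identical Clca copies may be divided between them, while the deposited Spink4 reads were whole numbers in every library. Of 14 genes of cytokine signals known to act on goblet cells 10 were tested and none was called. The one of smallest p, Il33, had 272, 143 and 46.0 CPM in PG_KO gut, against 57.5, 12.2 and 46.5 CPM in ctr gut, and its groups overlapped (log2 change 2.03, SE 0.77, edgeR adjusted p = 0.330).

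Per length, the make-up of the mucus RNA was compared between gut groups, without a test. By RPKM (CPM per kilobase of the deposited exon length), Zg16 had the highest group mean of the members, at 341 ± 175 RPKM in PG_KO gut and 2784 ± 1964 RPKM in ctr gut (SD, n = 3 each). It made up 38.3% of the summed RPKM of the 10 genes in PG_KO and 53.7% in ctr, though in ctr replicate 3 Agr2 stood above it, at 718 RPKM for Agr2 and 661 RPKM for Zg16. The ctr share of Zg16 was 59.2% without replicate 3. In ctr replicate 3 alone it was 25.8%, below the 32.6% to 44.3% of the PG_KO libraries. Agr2 took 25.8% in PG_KO and 6.64% in ctr, but 2.41% in ctr without replicate 3 and 28.1% in ctr replicate 3 alone. Clca1 took 1.87% in PG_KO and 7.44% in ctr, or 8.27% in ctr without replicate 3. Muc2, at 39.3 ± 22.6 RPKM in PG_KO and 246 ± 86.4 RPKM in ctr, held nearly the same share in both, 4.41% in PG_KO and 4.75% in ctr. Together the 10 genes took 0.0603% to 0.153% of all reads in PG_KO libraries and 0.398% to 0.981% in ctr libraries.

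**Figure D4:**
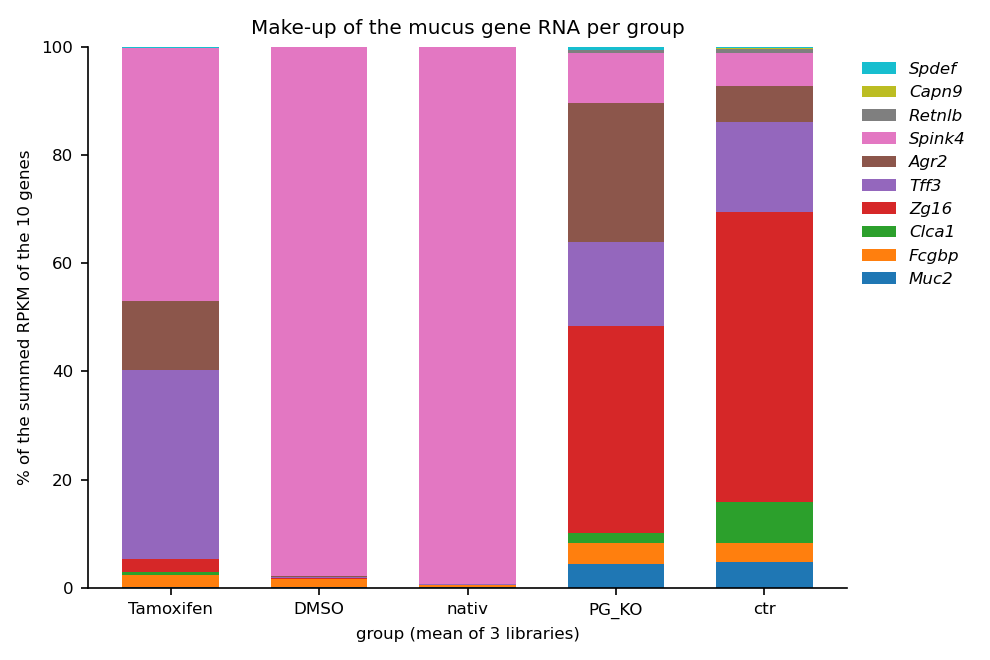
Share of each gene in the summed mean RPKM of the 10 genes, one bar per group (mean of 3 libraries). Spink4 takes 97.9% of the bar in DMSO and 99.2% in nativ organoids, Zg16 has the largest share of the means in both gut groups, and Spink4 (46.8%) with Tff3 (34.9%) leads in Tamoxifen organoids.

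In organoids the picture was one of presence against near absence. The Tamoxifen organoids of code T41 held RNA of 8 members at 7.84 CPM or more in every library, whereas the DMSO and nativ organoids of code T75 held little beyond Spink4 and Fcgbp. Muc2 had 23.8, 34.0 and 19.999 CPM with Tamoxifen, 0.541, 0.834 and 1.31 CPM with DMSO and 1.05, 1.91 and 0.870 CPM in nativ. It was 28.9 times higher with Tamoxifen than with DMSO by group means and 20.3 times higher than in nativ. Its edgeR log2 change was 4.78 against DMSO (SE 0.37, adjusted p = 1.01e-06) and 4.21 against nativ (SE 0.36, adjusted p = 1.95e-06). Fcgbp had 314, 342 and 309 CPM with Tamoxifen, 8.74, 7.44 and 8.93 CPM with DMSO and 6.78, 6.39 and 7.24 CPM in nativ, and its change against DMSO was 5.20 (SE 0.10, adjusted p = 8.74e-11).

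The widest gaps belonged to Tff3 and Agr2. Tff3 had 293, 295 and 302 CPM with Tamoxifen, from 26271 reads in all, against 7 reads in the 3 DMSO libraries and 10 in the 3 nativ libraries. Agr2 had 182, 176 and 186 CPM with Tamoxifen, from 16061 reads, against 6 reads in DMSO and 6 in nativ. Their log2 changes against DMSO were 11.68 (SE 0.26, adjusted p = 1.32e-10) and 11.18 (SE 0.24, adjusted p = 1.18e-10), and with so few reads below they depend on the prior count of the fit. Clca1 had 41.3, 40.6 and 35.1 CPM with Tamoxifen, against 4 reads in DMSO and 11 in nativ. Zg16 had 28.7, 30.1 and 30.8 CPM with Tamoxifen, against 8 reads in DMSO and 11 in nativ. Spdef, the transcription factor, had 7.92, 7.84 and 8.73 CPM with Tamoxifen, against 10 reads in DMSO and 15 in nativ. Capn9 and Retnlb did not pass the low-count filter. Capn9 had 40 reads with Tamoxifen, 1 with DMSO and 4 in nativ, a ratio to DMSO of 38.5 per read of depth (95% counting interval 6.52 to 1558), and Retnlb had 2 reads with Tamoxifen and 0 in the other organoids, which allows up to 0.119 CPM in a library.

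Spink4 was the exception. It had 328, 347 and 350 CPM with Tamoxifen, 17.4, 23.8 and 47.7 CPM with DMSO and 54.1, 136 and 61.5 CPM in nativ. The 3 groups did not overlap. It rose with Tamoxifen, by a log2 change of 3.46 against DMSO (SE 0.45, adjusted p = 5.80e-05 in edgeR) and by 1.86 against nativ (SE 0.42, adjusted p = 0.00259), the smallest of the tested members in both. Spink4 was also the one member with a higher mean in Tamoxifen organoids (342 CPM) than in ctr gut (123 CPM), with no overlap. Its nativ level overlapped that of ctr gut, and its DMSO level that of PG_KO gut, although gut and organoids were counted in separate tables.

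Of the 10 genes, 8 passed the filter in the organoid fit, and edgeR called all 8 higher with Tamoxifen in both comparisons. Across all 16449 genes 66.3% were called against DMSO (33.9% higher) and 66.9% against nativ (33.5% higher). Only Fcgbp, Muc2 and Spink4 would have passed the filter on the DMSO and nativ libraries alone, so the others had to differ in order to be tested, and nothing is read from the count. The Tamoxifen comparisons share the Tamoxifen libraries.

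Between DMSO and nativ organoids, which share the code T75, edgeR called none of the 8 tested members and 0% of all genes, with 2408 genes at an unadjusted p under 0.05. DESeq2 called none of the members either, and 0.919% of all genes. Spink4 was lower with DMSO in all 3 libraries (log2 change -1.60, SE 0.43, edgeR adjusted p = 0.291) and Fcgbp higher in all 3 (0.25, SE 0.10, adjusted p = 0.310). Groups that did not overlap made up 7.00% of all genes in the lower direction and 7.08% in the higher.

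Companion genes were called in both directions in the organoids, as were all genes, with 33.9% higher and 32.4% lower against DMSO and 33.5% in each direction against nativ. Genes near 0 in DMSO and nativ were tested only through their Tamoxifen level, so nothing is read from the counts of higher calls. Of 10 other goblet cell markers tested, 8 were called higher with Tamoxifen and 1 lower in both comparisons, and 4 of the 8 would have passed the filter on DMSO and nativ libraries alone. Ang4 had 98.1, 99.95 and 104 CPM with Tamoxifen, at most 0.0328 CPM with DMSO and at most 0.0347 CPM in nativ, although it was near 1 CPM or below in gut. Of 11 secretory transcription factors, 5 were called higher and 4 lower against DMSO, and 5 in each direction against nativ. Atoh1 had 9.56, 9.14 and 10.6 CPM with Tamoxifen and at most 0.0348 CPM in any other organoid library. Foxa2, a factor known to act in goblet cell development, went the other way, with 4.75, 4.29 and 4.79 CPM with Tamoxifen, 112, 93.5 and 89.9 CPM with DMSO and 77.3, 54.6 and 78.0 CPM in nativ. Among other mucins, Muc13 and Muc3, which stay in the membrane, had at least 843 CPM with Tamoxifen and at most 1.87 CPM in the other organoids. Muc1, also of the membrane, had at most 0.250 CPM with Tamoxifen and at least 521 CPM in the others.

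Among genes that build the sugar chains, 7 of 12 tested were called higher against DMSO and 3 lower. Galnt6, which starts them, had 350, 352 and 343 CPM with Tamoxifen, against 4.20, 4.37 and 6.56 CPM with DMSO. Of all genes, 33.9% were called higher and 32.4% lower against DMSO, and 33.5% in each direction against nativ. Of 18 folding genes 8 were called higher and 4 lower against DMSO, and 4 in each direction against nativ. Ern2, the stress sensor of goblet cells, had 7.35, 5.66 and 6.05 CPM with Tamoxifen and at most 0.0397 CPM in any other organoid library. Of 9 genes for mucus release and assembly 7 were called higher and 2 lower in both comparisons, led by Nlrp6, Mep1b and Cftr. Only 2 of the 7 would have passed the filter on DMSO and nativ libraries alone, so nothing is read from that count. Mep1b, a subunit of the protease meprin that frees mucin from the cell surface, had 360, 341 and 337 CPM with Tamoxifen, against at most 0.173 CPM in the others. Of 7 cytokine signal genes tested 4 were called higher and 2 lower against DMSO. Il4ra, which encodes a receptor chain for IL-4 and IL-13, had 40.0, 41.7 and 41.3 CPM with Tamoxifen, against 259, 244 and 269 CPM with DMSO.

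Markers of other epithelial cells also stood at other levels in Tamoxifen organoids, not all in one direction. The summed level of 8 enterocyte markers was 5081 to 5807 CPM with Tamoxifen, 12.3 to 21.6 CPM with DMSO and 16.9 to 18.3 CPM in nativ. That of 8 enteroendocrine markers was 274 to 288 CPM with Tamoxifen, at most 0.159 CPM with DMSO and at most 0.658 CPM in nativ. Of these, 3 of the 8 enterocyte markers and 0 of the 7 enteroendocrine markers tested would have passed the filter on DMSO and nativ libraries alone, so no count of calls is given. The sum of 6 tuft cell markers was lower, at 5.83 to 8.36 CPM with Tamoxifen, 38.5 to 52.8 CPM with DMSO and 30.6 to 55.3 CPM in nativ. Not all 6 went that way: DESeq2 called Dclk1 and Avil lower in both comparisons and Alox5 lower against DMSO, but Trpm5 higher in both. The sum of 5 Paneth cell markers was 3031 to 3065 CPM with Tamoxifen, 1685 to 2818 CPM with DMSO and 1970 to 2283 CPM in nativ. This sum hides opposite directions. DESeq2 called Lyz1, Defa17, Defa24 and Defa30 higher with Tamoxifen in both comparisons, and Mmp7 lower. Only Mmp7 of the 5 would have passed the filter on DMSO and nativ libraries alone. In DMSO organoids Chgb, Cck, Sst and Reg4 were at 0 reads. The part of these cell types in the result was not tested, and culture code, Cre and treatment cannot be told apart. Over the 9 organoid libraries Creb3l3, Slc3a1, Slc5a1 and Phyh were among the 5 genes most like Muc2 (r = 0.99 for each), where r mostly restates the split between T41 and T75. Creb3l3 had 88.4, 90.3 and 82.8 CPM with Tamoxifen and at most 0.381 CPM in the other organoids.

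**Figure D5:**
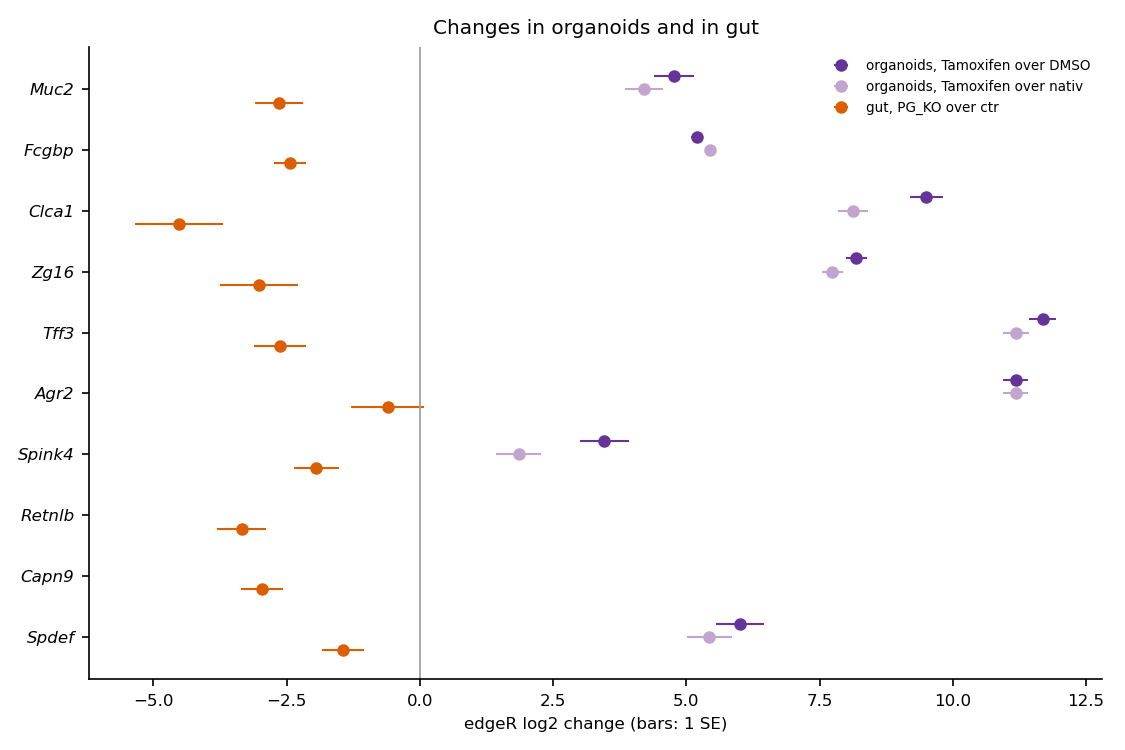
EdgeR log2 change of each gene in Tamoxifen over DMSO organoids, in Tamoxifen over nativ organoids and in PG_KO over ctr gut (points, bars 1 SE; Retnlb and Capn9 were not tested in organoids). Organoid points lie between 1.86 and 11.68 and gut points between -4.52 and -0.60.

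Whether the change in tissue differed from that in culture was tested in 1 fit of all 15 libraries. The gut change minus the Tamoxifen change against DMSO was below 0 for all 10 genes and called for 9, against 18.4% of all 19318 genes called in that direction. Against nativ it was likewise called for 9, with a background of 18.6%. It ran from -5.38 for Spink4 to -14.28 for Tff3 against DMSO. This contrast includes the organoid change, which was large for members near 0 in DMSO and nativ organoids. For Tff3 the organoid change against DMSO was 11.68, resting on 7 DMSO reads. Agr2 was called at -11.77, although its gut change was -0.60 (edgeR adjusted p = 0.643). Nothing is therefore read from the count of calls. Retnlb was the gene not called, at -5.94 (SE 2.40, edgeR adjusted p = 0.0816 against DMSO and 0.0803 against nativ), with 2 reads in all organoid libraries; DESeq2 called it (adjusted p = 0.00878 against DMSO and 0.00822 against nativ). Jup was lower in both the Tamoxifen and the PG_KO groups, as given above.

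The order of the groups differed from gene to gene. Muc2, Clca1, Zg16, Retnlb, Capn9 and Spdef ran from ctr gut through PG_KO gut and Tamoxifen organoids to the T75 organoids, though PG_KO gut and Tamoxifen organoids overlapped for Clca1, and Tamoxifen and T75 organoids for Retnlb. Fcgbp had 322 ± 17.8 CPM in Tamoxifen organoids and 276 ± 108 CPM in PG_KO gut (SD, n = 3 each), which overlapped. Tff3 in Tamoxifen organoids, at 297 ± 4.46 CPM, overlapped ctr gut at 394 ± 213 CPM and lay above PG_KO gut at 63.2 ± 23.6 CPM. Agr2 had 181 ± 4.88 CPM in Tamoxifen organoids, 175 ± 86.3 CPM in PG_KO gut and 261 ± 247 CPM in ctr gut, and all 3 overlapped. Levels of gut and organoids come from separate tables and are set side by side only as CPM.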

How the data were processed

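Poly(A) RNA of 15 mouse samples was sequenced from RNA with integrity numbers of 7.7 or more, per the labels. The authors deposited expected counts, that is unscaled reads per gene, with organoids and gut in separate tables. The submitters' processing notes name bcl2fastq (2.20.0.422), cutadapt (2.5), STAR (2.7.2b), Subread with featureCounts (1.6.4), DESeq2 and the build GRCm38.p6. Strand setting and filters are not given in the sources used here. In each library 10.4% to 13.7% of values carried a fraction, and values were rounded for the fits. CPM divide by library totals, and RPKM also by the exon length that the deposited tables list per gene.

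Samples were grouped by description. Tests were quasi-likelihood F tests in edgeR 4.0.16 under R 4.3.3, with TMM scaling, the filterByExpr filter and Benjamini-Hochberg adjusted p over every gene tested, called under 0.05. Separate fits held the 9 organoid libraries, the 6 gut libraries and all 15. An SE is the size of a log2 change over the root of its F value. A ratio of group means divides mean CPM. The alternatives were DESeq2 1.42.0, RLE scaling, no scaling beyond totals, an open filter, a filter at 1 CPM in 3 libraries, replicate number as a block, and each library left out; scaling to epithelial markers, and leaving ctr replicate 3 out of shares and quotients, were chosen after seeing the data. Likeness is Pearson r of log2 CPM with a prior count of 2, with no test. On simulated counts with the gut spread over 18043 genes, edgeR recovered 60% and DESeq2 81% of log2 changes of 2, with 7 and 65 false calls. Each gene was drawn on its own, so no simulated library stood apart as ctr replicate 3 did. These percentages are therefore not carried over to the gut data.

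Members and gene lists were chosen with earlier results of these data known. Named are the 10 members, Jup, the 5 genes most like Muc2 per table (1 of them is not reported here) and, per companion list and comparison, up to 3 called genes of smallest p, or else the 1 of smallest p; other names are DESeq2 calls of a list, or were picked after their values were seen. Promoters are from RefSeq on GRCm38.p6.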

Additional observations from a re-analysis of the deposited data

Results flagged for a closer look

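The change in gut (PG_KO over ctr) differed from the change in organoids (Tamoxifen over a control) by an interaction test in edgeR for 9 of the 10 genes. Of all 19318 genes, 18.4% were called in that direction against DMSO and 18.6% against nativ. Among the secreted proteins, the gut change minus the organoid change against DMSO was -7.38 for Muc2, -7.59 for Fcgbp, -13.99 for Clca1 and -11.17 for Zg16 on the log2 scale. It was -14.28 for Tff3, -5.38 for Spink4 and, among the genes that act inside the cell, -11.77 for Agr2, -7.69 for Capn9 and -7.42 for Spdef. Against nativ organoids the values were -6.82 for Muc2, -7.85 for Fcgbp, -12.61 for Clca1 and -10.73 for Zg16. They were -13.78 for Tff3, -3.80 for Spink4, -11.77 for Agr2, -6.02 for Capn9 and -6.85 for Spdef. The 2 sets share the gut and the Tamoxifen libraries, and organoid code, Cre and treatment changed together. The values include organoid changes that for most of these genes rest on few DMSO and nativ reads, so nothing is read from the count.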

How the results depend on the processing

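No setting that kept all libraries reversed a member in the Tamoxifen comparisons or in PG_KO against ctr. Of the log2 changes of single members under an alternative, 747 kept direction and side of the threshold, 20 passed the threshold only there and 10 reversed. The number of the 10 genes called in PG_KO against ctr was 0 with edgeR, 9 with DESeq2, 1 with epithelial scaling and 0 to 7 leaving out 1 library. The number of all genes called there was 0 with edgeR, 5 with no filter, 431 with DESeq2, 13 with epithelial scaling and 0 to 1478 leaving out 1 library, the highest without ctr replicate 3. Between DMSO and nativ, 0 genes were called with edgeR, 2 with no filter, 138 with DESeq2 and 0 to 1 leaving out 1 library. Reversed values were Agr2 in DMSO against nativ, at -0.01 in the main analysis, 0.0037 with RLE factors, 0.0450 with library totals, 0.0041 with no filter, 0.0094 with DESeq2 and -0.38 to 0.99 leaving out 1 library. Leaving out 1 library there also moved Tff3 between -1.06 and 0.28 and Spdef between -1.21 and 0.0310, and in PG_KO against ctr it moved Agr2 between -1.05 and 0.60; the cause was not tested. Replicate numbers did not pair the samples (correlations of same-numbered deviations from -0.12 to 0.19 in organoids and from -0.18 to 0.29 in gut), and a fit with the replicate block called 0 of the 10 genes in gut. Library totals changed the split of Tamoxifen against nativ to 6040 genes higher and 4703 lower, from 5506 in each direction.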
